A study of Homo sapiens with 15 samples.

Results

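The genes described here are 10 growth factor receptor tyrosine kinases, EGFR, ERBB2, ERBB3, ERBB4, MET, IGF1R, INSR, FGFR2, FGFR3 and RET, chosen by name from the 58381 genes listed in the deposited counts. All 10 were found by their Ensembl identifiers, and 9 of them passed the filter on low counts, among 19621 genes that were tested. ERBB4 did not pass and is described by its counts. The rule for choosing them was their names, and it was set with earlier results of these data known.

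VCaP is an established human prostate cancer cell line with a TMPRSS2-ERG fusion, and 5 sublines of it were profiled by bulk RNA-seq, with 3 libraries each and 15 in all. VCaP-T was kept with 10 nM testosterone for 7 months in medium with charcoal-stripped serum. By the protocol, VCaP-CT is VCaP-T after 10 more months at 0.1 nM testosterone, an in vitro counterpart of androgen deprivation therapy (ADT). VCaP-CT-ER is VCaP-CT that regained growth in 10 µM enzalutamide (ENZ), an antiandrogen. VCaP-CT-BR is VCaP-CT that became insensitive to bicalutamide, an older antiandrogen, and VCaP-CT-BR-ER regained growth in ENZ after bicalutamide. The doses of bicalutamide, and of ENZ for VCaP-CT-BR-ER, are not given in the sources used here. The sample labels differ from the protocol at some points, since they list 10 nM testosterone for the later 10 months too, and the label of VCaP-CT-BR mentions ENZ after bicalutamide. All sublines share the first 7 months with testosterone, and the 4 later ones share the deprivation. Each subline stands for 1 derivation, so what it was treated with, how long it was cultured and how it was derived cannot be told apart, and p-values measure only the spread between libraries of one derivation. The study calls the 3 replicates biological, without saying how they were separated.

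Receptor tyrosine kinases are membrane proteins, most of which bind a growth factor outside the cell. They typically signal as pairs whose partners phosphorylate each other inside the cell. Adaptor proteins then bind the phosphorylated tails and pass the signal to the RAS-MAPK cascade and to PI3K and AKT, which drive growth and survival. In prostate epithelium these receptors receive signals from epithelial and stromal growth factors, and they are studied as routes by which prostate cancer cells may keep growing when androgen signalling is blocked.

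The promoter sequences of 4 of the genes are shown, since EGFR and FGFR2 had the largest falls with deprivation among the genes with a window, and MET and IGF1R the largest rises in the ENZ step from VCaP-CT. They are the 250 bases before the RefSeq transcription start on GRCh38.p14, written from 5′ to 3′ on the strand of the gene, and capitals mark GC boxes, the letters GGGCGG on either strand. Where RefSeq gave several starts, the nearest to the start of the counted gene was used, at most 432 bases away for these genes. The EGFR window is chr7:55018767-55019016 on the plus strand, that of FGFR2 chr10:121598445-121598694 on the minus strand, that of MET chr7:116671946-116672195 on the plus strand and that of IGF1R chr15:98648289-98648538 on the plus strand. The windows lie upstream of the counted genes, except that of FGFR2, which reaches a few bases into its gene.
EGFR: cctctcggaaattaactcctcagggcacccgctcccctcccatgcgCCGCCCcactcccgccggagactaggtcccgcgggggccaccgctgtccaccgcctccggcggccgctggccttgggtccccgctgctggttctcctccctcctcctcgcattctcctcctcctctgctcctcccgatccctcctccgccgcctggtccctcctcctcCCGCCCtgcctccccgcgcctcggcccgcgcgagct
FGFR2: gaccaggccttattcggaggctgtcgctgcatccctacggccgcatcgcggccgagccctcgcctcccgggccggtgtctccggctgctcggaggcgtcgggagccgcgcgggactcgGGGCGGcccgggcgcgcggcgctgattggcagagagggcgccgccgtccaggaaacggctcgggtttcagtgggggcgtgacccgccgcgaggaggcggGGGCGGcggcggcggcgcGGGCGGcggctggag
MET: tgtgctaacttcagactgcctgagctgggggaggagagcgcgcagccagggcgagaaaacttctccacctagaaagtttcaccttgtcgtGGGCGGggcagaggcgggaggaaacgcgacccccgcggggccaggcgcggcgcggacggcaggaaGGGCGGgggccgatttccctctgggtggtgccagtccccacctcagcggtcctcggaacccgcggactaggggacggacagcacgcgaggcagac
IGF1R: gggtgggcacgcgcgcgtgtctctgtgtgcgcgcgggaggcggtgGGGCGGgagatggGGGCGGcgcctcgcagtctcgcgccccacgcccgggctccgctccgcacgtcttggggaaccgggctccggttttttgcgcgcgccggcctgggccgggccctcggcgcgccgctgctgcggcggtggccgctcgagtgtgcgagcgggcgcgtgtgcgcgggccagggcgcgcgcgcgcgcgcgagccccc

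These windows were rich in G and C, with a GC content of 73.6% for EGFR, 78.4% for FGFR2, 68.4% for MET and 81.2% for IGF1R. Of the 10 receptor genes, 9 had a RefSeq window, and in 7 of the 9 the GC content was above 68.0%, the upper quartile of all 35116 windows, whose median was 58.0%. At least 1 GC box was found in 8 of the 9 windows, against 42.6% of all windows. The letters CCAAT, searched like all words on both strands, were in 2 of the 9, those of ERBB2 and FGFR2, against 32.0% of all windows. The TATA box TATAAA was in 0 of the 9, against 10.7% of all windows, and the E-box CACGTG in 0 against 6.3%. The letters AGAACA, part of the androgen receptor binding site, were in 1 of the 9, that of ERBB4, against 12.4% of all windows. A match is a run of letters in the window, and its absence says only that the letters are not in these 250 bases.

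The libraries held 33665716 to 46935279 counted fragments. Libraries of a subline were alike, with correlations of log2 levels of at least 0.9942 over 13052 genes, against at most 0.9741 between sublines. Levels are given as CPM, counts relative to the library total, scaled by TMM. This method sets a factor for each library on the assumption that most genes do not change. That assumption is a limit here, since 42.9% to 71.2% of tested genes passed the test in the 4 steps and 3 comparisons with VCaP-T below. The prostate luminal markers KLK3, KLK2, TMPRSS2, FOLH1, HOXB13, KRT8 and KRT18, and ERG of the fusion, were detected in every library. Their summed CPM was 21104 to 21941 with testosterone, 9501 to 10305 after deprivation and 9941 to 10853 for VCaP-CT-ER. It was 6238 to 6603 under bicalutamide and 4658 to 4886 when ENZ followed. KLK3 (PSA) ranged from 13.5 to 3617 CPM, and both the sum and KLK3 were highest in VCaP-T. Of 4 basal markers, KRT5 and TP63 stayed at or below 6 counts in every library, and the summed CPM reached 21.6 to 23.7 in VCaP-T but no more than 2.84 elsewhere. Of 6 neuroendocrine markers, CHGA reached at most 1 count, while the sum was 234 to 244 in VCaP-T and 11.6 to 40.3 in the others. The summed CPM of 6 stromal markers was 7.65 to 11.1 with testosterone and after deprivation. It was 24.5 to 25.4 under bicalutamide but 185 to 217 for VCaP-CT-ER and 217 to 251 for VCaP-CT-BR-ER, so it was higher after both ENZ steps, and most of it was LUM, which reached 248 CPM, while COL1A2 had 0 counts in every library and COL3A1 at most 7. Of 6 immune and endothelial markers, CD3E had 0 counts in every library and the sum was at most 16.3. The part of these marker levels in the results was not tested, and in bulk libraries fewer cells of a kind and less RNA per cell cannot be told apart.

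The receptors moved in different directions rather than as a group. After deprivation, VCaP-CT against VCaP-T, 8 of the 9 tested receptors changed, 4 up (ERBB2, INSR, FGFR3 and RET) and 4 down (EGFR, ERBB3, IGF1R and FGFR2), by edgeR's quasi-likelihood test with Benjamini-Hochberg adjustment, at an adjusted p of at most 0.05. In this comparison 65.3% of all tested genes passed the same test, so a call by itself says little about a receptor and the size of the change carries more. The median absolute log2 fold change was 0.62 over the receptors and 0.47 over all genes. In the later steps these medians were 1.18 and 0.41 in VCaP-CT-ER against VCaP-CT, and 0.32 and 0.34 in VCaP-CT-BR against VCaP-CT. They were 0.44 and 0.27 in VCaP-CT-BR-ER against VCaP-CT-BR, so only with bicalutamide was the receptor median below that of all genes. In the 4 steps, at least a 2-fold change, past the test, was found for 4 receptors in VCaP-CT against VCaP-T (20.8% of all genes), 5 in VCaP-CT-ER against VCaP-CT (17.5%), 2 in VCaP-CT-BR against VCaP-CT (9.96%), and 3 for VCaP-CT-BR-ER against VCaP-CT-BR (7.98%). The count of 2 rests on values close to 2-fold: it was 1 without replicate 2 of VCaP-CT or replicate 1 of VCaP-CT-BR and 3 without replicate 3 of either. The ENZ step from VCaP-CT changed 8 receptors, 4 up (ERBB2, ERBB3, MET and IGF1R) and 4 down (EGFR, INSR, FGFR2 and RET), against 60.9% of all genes called. The bicalutamide step changed 7, with MET up and EGFR, ERBB2, IGF1R, FGFR2, FGFR3 and RET down, against 53.2%. The ENZ step from VCaP-CT-BR changed 7, with ERBB2, ERBB3, IGF1R, FGFR2 and RET up and EGFR and FGFR3 down, against 42.9%.

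**Figure D1:**
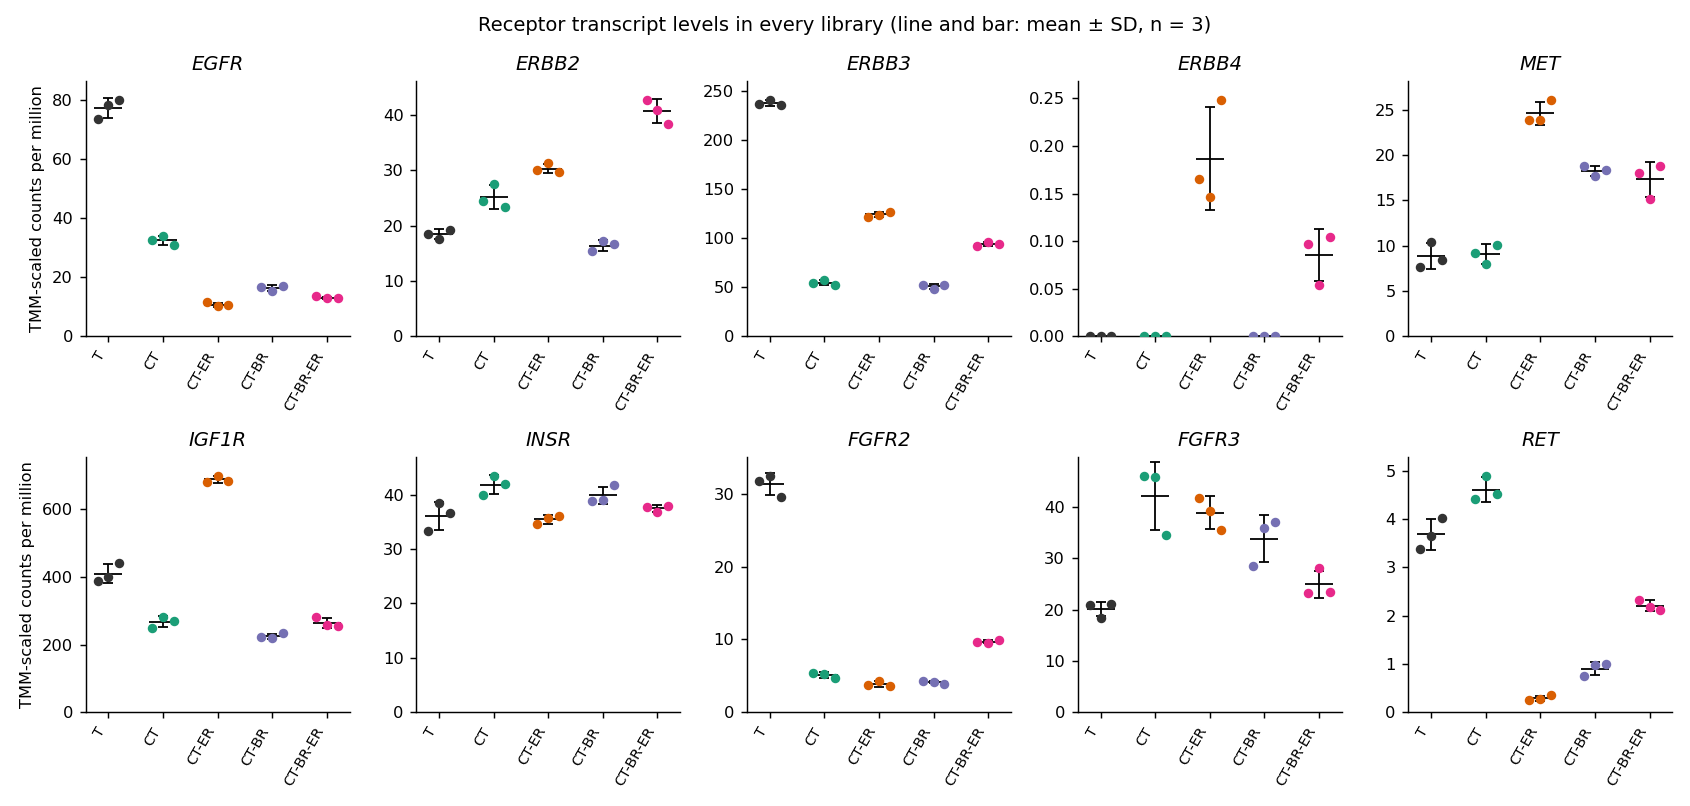
TMM-scaled CPM (vertical axes, each from 0) of the 10 receptor genes in the 15 libraries, by subline; points are libraries and the line and bar are the mean ± SD (n = 3). EGFR, ERBB3 and FGFR2 were highest in VCaP-T, MET and IGF1R in VCaP-CT-ER, and RET was lowest in VCaP-CT-ER.

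EGFR, the receptor of EGF, TGFA, HBEGF and betacellulin, lies on chromosome 7 (GRCh38, chr7:55019021-55211628, plus strand, ENSG00000146648.17) and fell at every step. Its CPM in replicates 1 to 3 were 73.5, 78.3 and 80.0 in VCaP-T and 32.5, 34.0 and 30.9 in VCaP-CT. On the ENZ route VCaP-CT-ER had 11.6, 10.2 and 10.6, and on the bicalutamide route VCaP-CT-BR had 16.9, 15.4 and 17.2 and, with ENZ added, VCaP-CT-BR-ER had 13.5, 12.9 and 12.95. All libraries of the later sublines lay far below those of VCaP-T, and the 5 groups did not overlap. The fall was 2.38-fold in VCaP-CT against VCaP-T (log2 fold change −1.25 ± 0.062 SE, adjusted p = 1.77e-13), 3.01-fold in VCaP-CT-ER against VCaP-CT (−1.59 ± 0.067, 1.69e-14), 1.97-fold in VCaP-CT-BR against VCaP-CT (−0.98 ± 0.065, 1.2e-10) and 1.26-fold in VCaP-CT-BR-ER against VCaP-CT-BR (−0.33 ± 0.069, 0.000537). In the order of the means, highest in VCaP-T and lowest in VCaP-CT-ER, every subline differed from the next past the test. Its antisense gene EGFR-AS1 shares 1.49% of the EGFR exon bases, had at most 14 counts in a library, and could not be told apart there because strand was not used in counting. The EGFR window shown above held 2 GC boxes.

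ERBB2, also called HER2, has no known ligand and serves as partner of the other ERBB receptors (chr17:39687914-39730426, plus strand, ENSG00000141736.13). The libraries of VCaP-T had 18.5, 17.6 and 19.3 CPM and those of VCaP-CT 24.4, 27.6 and 23.5. Under ENZ the values were 30.03, 31.3 and 29.7 (VCaP-CT-ER), under bicalutamide 15.4, 17.2 and 16.7 (VCaP-CT-BR) and under both in turn 42.7, 40.9 and 38.4 (VCaP-CT-BR-ER). ERBB2 was highest in all 3 libraries of VCaP-CT-BR-ER and lowest in those of VCaP-CT-BR, and the groups did not overlap. It rose 1.36-fold with deprivation (log2 fold change 0.44 ± 0.071 SE, adjusted p = 1.17e-05) and 1.21-fold in VCaP-CT-ER against VCaP-CT (0.27 ± 0.068, 0.00176), fell 1.53-fold with bicalutamide (−0.62 ± 0.071, 3.35e-07) and rose 2.48-fold in VCaP-CT-BR-ER against VCaP-CT-BR (1.31 ± 0.070, 2.9e-12). ERBB2 shares 5.53% of its exon bases with MIEN1 and 1.88% with PGAP3, both on the opposite strand, so some fragments there cannot be assigned to a gene.

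ERBB3, or HER3, binds neuregulins and signals mainly as partner of ERBB2, since its own kinase is weak; its phosphorylated tail binds PI3K (chr12:56076799-56103505, plus strand, ENSG00000065361.15). In CPM, VCaP-T was at 236, 241 and 235 and VCaP-CT at 54.7, 57.6 and 52.2. The ENZ-resistant sublines were at 121, 124 and 127 without prior bicalutamide (VCaP-CT-ER) and at 92.1, 96.5 and 94.1 with it (VCaP-CT-BR-ER), while VCaP-CT-BR was at 52.4, 48.4 and 52.3. VCaP-T stood apart at the top, the ENZ-resistant sublines lay between, and VCaP-CT and VCaP-CT-BR overlapped at the bottom. ERBB3 fell 4.33-fold with deprivation (log2 fold change −2.11 ± 0.050 SE, adjusted p = 8.32e-19). It rose in both ENZ steps, 2.26-fold from VCaP-CT (1.18 ± 0.049, 1.31e-14) and 1.85-fold from VCaP-CT-BR (0.88 ± 0.049, 5.83e-12), yet VCaP-T remained 1.91-fold above VCaP-CT-ER and 2.52-fold above VCaP-CT-BR-ER. The difference between VCaP-CT-BR and VCaP-CT was −0.10 ± 0.050 (adjusted p = 0.0855, unadjusted 95% interval −0.20 to −0.0064), and it passed the test without replicate 3 of VCaP-CT (−0.15, adjusted p = 0.0265).

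ERBB4, or HER4, another neuregulin receptor (chr2:211375717-212538841, minus strand, ENSG00000178568.14), was near the limit of detection. It had 0 counts in all 9 libraries made before ENZ by name (VCaP-T, VCaP-CT, VCaP-CT-BR), 8, 7 and 10 counts in VCaP-CT-ER, and 4, 2 and 4 in VCaP-CT-BR-ER. The counts above 0 were thus in the libraries of the ENZ-resistant sublines, on both routes. With the floor set at 3 counts per library, the mean CPM of VCaP-CT-ER, 0.187, was at least 2.16-fold higher than in VCaP-CT, at least 2.39-fold higher than in VCaP-T and at least 2.43-fold higher than in VCaP-CT-BR. The counts of VCaP-CT-BR-ER were too close to the floor for a bound. Without the filter on low counts, the adjusted p of ERBB4 was 0.000222 in VCaP-CT-ER against VCaP-CT, and it was 0.0124 for VCaP-CT-BR-ER against VCaP-CT-BR, and with DESeq2 it was 0.00325 in the first and not assigned in the second.

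MET, the receptor of hepatocyte growth factor (chr7:116672390-116798386, plus strand, ENSG00000105976.14), was low in VCaP-T and rose after treatment with either antagonist. Its CPM in replicates 1 to 3 were 7.71, 10.5 and 8.43 in VCaP-T and 9.24, 7.97 and 10.1 in VCaP-CT. On the ENZ route VCaP-CT-ER had 23.8, 23.9 and 26.1, and on the bicalutamide route VCaP-CT-BR had 18.8, 17.7 and 18.3 and, with ENZ added, VCaP-CT-BR-ER had 17.98, 15.2 and 18.8. The libraries of VCaP-T and VCaP-CT overlapped, those of the bicalutamide route overlapped with each other at a higher level, and those of VCaP-CT-ER lay above all others. MET was 2.69-fold higher in VCaP-CT-ER than in VCaP-CT (log2 fold change 1.43 ± 0.10 SE, adjusted p = 1.11e-10) and 2.003-fold higher in VCaP-CT-BR than in VCaP-CT (1.003 ± 0.10, 7.5e-08). No difference was detected with deprivation (0.041 ± 0.11, adjusted p = 0.762, 95% interval −0.18 to 0.26) or in VCaP-CT-BR-ER against VCaP-CT-BR (−0.076 ± 0.098, adjusted p = 0.569, −0.27 to 0.12). The window of MET shown above held 2 GC boxes.

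IGF1R, the receptor of IGF1 and IGF2 (chr15:98648971-98964530, plus strand, ENSG00000140443.13), was the most abundant receptor transcript per length in all 15 libraries. The libraries of VCaP-T had 387, 400.1 and 442 CPM and those of VCaP-CT 250.04, 282 and 269.7. Under ENZ the values were 681, 699 and 684 (VCaP-CT-ER), under bicalutamide 222, 220.2 and 234 (VCaP-CT-BR) and under both in turn 281, 257 and 256 (VCaP-CT-BR-ER). VCaP-CT-ER stood far above the other sublines, VCaP-T followed, and the libraries of VCaP-CT and VCaP-CT-BR-ER overlapped. IGF1R fell 1.53-fold with deprivation (log2 fold change −0.62 ± 0.056 SE, adjusted p = 3.35e-09), rose 2.58-fold in VCaP-CT-ER against VCaP-CT (1.37 ± 0.056, 1.11e-14), fell 1.19-fold with bicalutamide (−0.25 ± 0.056, 0.000833) and rose 1.17-fold in VCaP-CT-BR-ER against VCaP-CT-BR (0.23 ± 0.056, 0.00189). In VCaP-CT-ER it was also 1.68-fold higher than in VCaP-T (0.75 ± 0.055, 1.02e-10).

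INSR, the insulin receptor and nearest relative of IGF1R (chr19:7112255-7294034, minus strand, ENSG00000171105.13), had the narrowest range of the tested receptors. In CPM, VCaP-T was at 33.3, 38.4 and 36.6 and VCaP-CT at 39.97, 43.5 and 42.0. The ENZ-resistant sublines were at 34.5, 35.7 and 36.1 without prior bicalutamide (VCaP-CT-ER) and at 37.7, 36.8 and 37.9 with it (VCaP-CT-BR-ER), while VCaP-CT-BR was at 38.8, 39.1 and 41.7. The highest subline mean was 1.18-fold the lowest, and no neighbouring sublines in the order of the means differed past the test. INSR rose 1.16-fold with deprivation (log2 fold change 0.21 ± 0.059 SE, adjusted p = 0.00326) and fell 1.18-fold in VCaP-CT-ER against VCaP-CT (−0.24 ± 0.058, 0.00135). In the other steps the differences were −0.069 ± 0.058 (adjusted p = 0.338, 95% interval −0.18 to 0.045) with bicalutamide and −0.091 ± 0.058 (adjusted p = 0.226, −0.21 to 0.024) in VCaP-CT-BR-ER against VCaP-CT-BR.

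FGFR2, an epithelial receptor of fibroblast growth factors (chr10:121478334-121598458, minus strand, ENSG00000066468.22), had the largest fall of the tested receptors with deprivation. Its CPM in replicates 1 to 3 were 31.8, 32.5 and 29.6 in VCaP-T and 5.43, 5.21 and 4.67 in VCaP-CT. On the ENZ route VCaP-CT-ER had 3.71, 4.35 and 3.60, and on the bicalutamide route VCaP-CT-BR had 4.25, 4.19 and 3.92 and, with ENZ added, VCaP-CT-BR-ER had 9.67, 9.54 and 9.88. VCaP-T was far above the rest, VCaP-CT-BR-ER lay above the remaining sublines without overlap, and VCaP-CT-ER and VCaP-CT-BR overlapped. FGFR2 fell 6.13-fold with deprivation (log2 fold change −2.62 ± 0.082 SE, adjusted p = 8.61e-17) and a further 1.31-fold in VCaP-CT-ER (−0.39 ± 0.095, 0.00132). It fell 1.24-fold with bicalutamide (−0.31 ± 0.096, adjusted p = 0.0103), a call lost without replicate 1 of VCaP-CT (−0.25, adjusted p = 0.0626). It rose 2.36-fold in VCaP-CT-BR-ER against VCaP-CT-BR (1.24 ± 0.088, 3.53e-10), to a level still 3.22-fold lower than in VCaP-T.

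FGFR3, another fibroblast growth factor receptor (chr4:1793293-1808872, plus strand, ENSG00000068078.18), moved the other way. The libraries of VCaP-T had 20.8, 18.4 and 21.0 CPM and those of VCaP-CT 46.1, 45.8 and 34.5. Under ENZ the values were 41.8, 39.3 and 35.4 (VCaP-CT-ER), under bicalutamide 28.5, 36.0 and 37.0 (VCaP-CT-BR) and under both in turn 23.3, 28.01 and 23.4 (VCaP-CT-BR-ER). All libraries of the later sublines lay above those of VCaP-T, with overlap among VCaP-CT, VCaP-CT-ER and VCaP-CT-BR. FGFR3 rose 2.09-fold with deprivation (log2 fold change 1.07 ± 0.11 SE, adjusted p = 3.54e-08) and fell 1.36-fold in VCaP-CT-BR-ER against VCaP-CT-BR (−0.44 ± 0.11, 0.00254). The fall with bicalutamide, 1.24-fold (−0.32 ± 0.11, adjusted p = 0.0183), came with overlapping groups and was lost without replicate 1 (−0.23, adjusted p = 0.127) or 2 (−0.24, adjusted p = 0.113) of VCaP-CT or replicate 1 of VCaP-CT-BR (−0.21, adjusted p = 0.113). In VCaP-CT-ER against VCaP-CT the difference was −0.12 ± 0.11 (adjusted p = 0.362, 95% interval −0.33 to 0.094). The pseudogenes named after it, FGFR3P1, FGFR3P4, FGFR3P5 and FGFR3P6, had at most 3 counts in a library.

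RET, the receptor of the GDNF family of ligands, which it binds together with GFRA co-receptors (chr10:43077027-43130351, plus strand, ENSG00000165731.18), was low throughout and spanned the widest range. In CPM, VCaP-T was at 3.39, 3.65 and 4.03 and VCaP-CT at 4.41, 4.90 and 4.53. The ENZ-resistant sublines were at 0.248, 0.272 and 0.348 without prior bicalutamide (VCaP-CT-ER) and at 2.33, 2.17 and 2.12 with it (VCaP-CT-BR-ER), while VCaP-CT-BR was at 0.752, 0.968 and 0.992. These rest on 12 to 14 counts per library in VCaP-CT-ER and 146 to 172 in VCaP-CT, and the 5 groups did not overlap. RET was 15.9-fold lower in VCaP-CT-ER than in VCaP-CT (log2 fold change −4.00 ± 0.17 SE, adjusted p = 1.91e-14) and 5.09-fold lower in VCaP-CT-BR (−2.35 ± 0.14, 2.42e-11), and it rose 2.44-fold in VCaP-CT-BR-ER against VCaP-CT-BR (1.29 ± 0.15, 8.19e-07). The rise of 1.25-fold with deprivation (0.32 ± 0.12, adjusted p = 0.0191) was lost with DESeq2 (adjusted p = 0.131), without replicate 2 of VCaP-CT (0.27, adjusted p = 0.0835) and without replicate 1 of VCaP-T (0.25, adjusted p = 0.101).

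**Figure D2:**
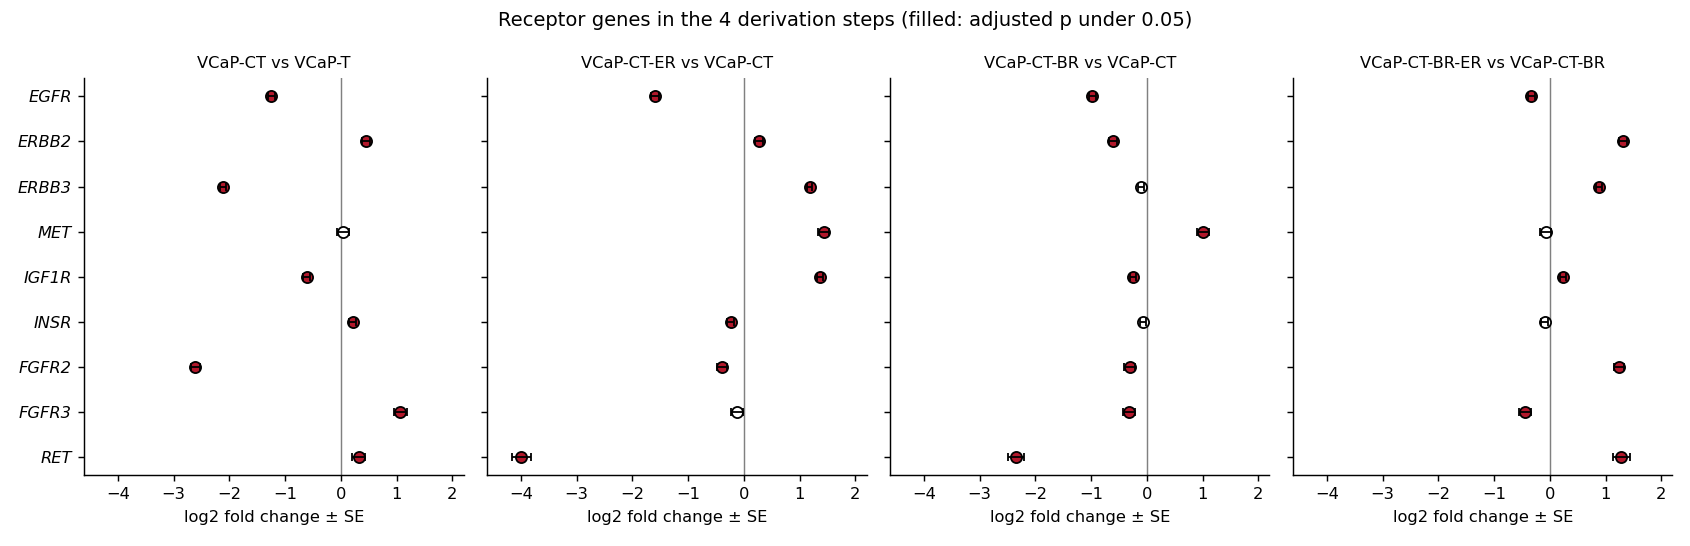
Log2 fold change ± SE (horizontal axes) of the 9 tested receptor genes in the 4 steps of derivation; filled points passed an adjusted p of 0.05 (edgeR, n = 3 per subline). RET had the largest fall, −4.00 in VCaP-CT-ER against VCaP-CT, and EGFR is left of 0 in all 4 panels.

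Against the testosterone-grown VCaP-T, EGFR, ERBB3, FGFR2 and RET were lower and MET and FGFR3 higher in all 3 sublines that had met an antagonist. VCaP-CT, before any antagonist, already had the same direction for EGFR, ERBB3 and FGFR2 (log2 fold change −1.25, −2.11 and −2.62) and FGFR3 (1.07). These comparisons share the VCaP-T libraries, so their values are given side by side. VCaP-CT-ER differed from VCaP-T in 8 receptors (4 up and 4 down, 69.0% of all genes called), VCaP-CT-BR in 9 (3 up and 6 down, 71.2%) and VCaP-CT-BR-ER in 8 (3 up and 5 down, 70.2%). With VCaP-CT-ER named first, VCaP-CT-BR next and VCaP-CT-BR-ER last, EGFR was 7.17-fold, 4.68-fold and 5.88-fold lower, and FGFR2 was 8.03-fold, 7.59-fold and 3.22-fold lower. MET was 2.77-fold, 2.06-fold and 1.956-fold higher in the same order. RET was 12.8-fold, 4.07-fold and 1.67-fold lower than in VCaP-T. For VCaP-CT-BR against VCaP-T, ERBB2 (log2 fold change −0.17, adjusted p = 0.0393) and INSR (0.14, adjusted p = 0.0335) were near the threshold. The ERBB2 call was lost without replicate 1 of VCaP-CT-BR (adjusted p = 0.116), of VCaP-CT (0.059) or of VCaP-T (0.0515), and without replicate 3 of VCaP-T (0.0997). The INSR call was lost without any 1 of 12 libraries, all but replicates 1 and 2 of VCaP-CT and replicate 2 of VCaP-T, with adjusted p from 0.0557 without replicate 3 of VCaP-CT-ER to 0.299 without replicate 1 of VCaP-T. FGFR3 in VCaP-CT-BR-ER (0.31, adjusted p = 0.0208) lost its call without replicate 2 of VCaP-CT-BR-ER (adjusted p = 0.133) or of VCaP-T (0.088).

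The ENZ step was not the same from the different starting sublines. The difference of the steps, VCaP-CT-ER against VCaP-CT minus VCaP-CT-BR-ER against VCaP-CT-BR, was itself tested, and it passed for 7 of the 9 receptors, against 49.7% of all genes. IGF1R, MET and ERBB3 rose more from VCaP-CT, by 1.13 ± 0.078 (SE), 1.51 ± 0.14 and 0.29 ± 0.069 on the log2 scale (adjusted p = 1.83e-10, 1.89e-08 and 0.00127). ERBB2 rose more from VCaP-CT-BR, with a difference of −1.04 ± 0.097 (adjusted p = 1.81e-08), and EGFR fell more from VCaP-CT, with −1.26 ± 0.096 (adjusted p = 7.74e-10). FGFR2 and RET moved in opposite directions, down from VCaP-CT and up from VCaP-CT-BR, with differences of −1.63 ± 0.13 (adjusted p = 1.7e-09) and −5.28 ± 0.23 (adjusted p = 1.53e-13). For INSR the difference was −0.15 ± 0.082 (adjusted p = 0.146, 95% interval −0.31 to 0.014). For FGFR3 it was 0.33 ± 0.15 (adjusted p = 0.0829, unadjusted 95% interval 0.027 to 0.63). The FGFR3 difference passed the test without replicate 2 of VCaP-CT (0.41, adjusted p = 0.0456), replicate 3 of VCaP-CT-ER (0.40, 0.0423), replicate 1 of VCaP-CT-BR (0.44, 0.0165) or replicate 2 of VCaP-CT-BR-ER (0.42, 0.0367). Since the label of VCaP-CT-BR mentions ENZ, its place as an ENZ-free start rests on its name and the protocol.

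**Figure D3:**
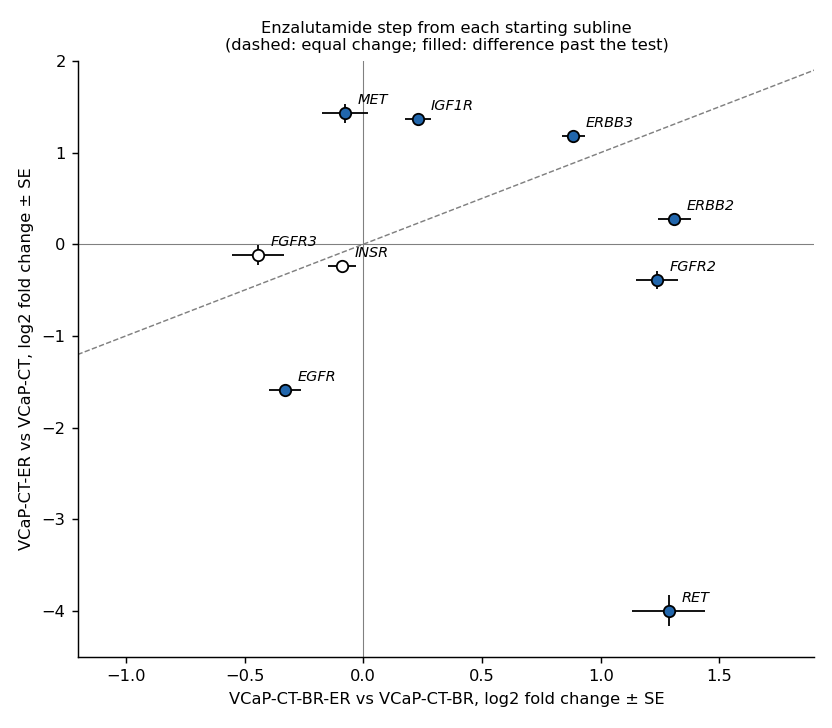
Log2 fold change ± SE of the 9 tested receptor genes in the ENZ step from VCaP-CT (vertical axis) and from VCaP-CT-BR (horizontal axis, on another scale); the dashed line marks equal change and filled points passed the test of the difference. MET and IGF1R lie above the line, and RET, EGFR, FGFR2 and ERBB2 below it.

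To compare levels between genes, CPM were divided by the exon length of each gene in kilobases. On this scale the 10 receptors summed to 78.1 ± 2.37 (SD, n = 3) in VCaP-T and to 46.2 ± 2.30 in VCaP-CT. VCaP-CT-ER was at 83.9 ± 0.811, whereas the sum was 39.3 ± 1.53 under bicalutamide (VCaP-CT-BR) and 47.8 ± 0.973 when ENZ followed (VCaP-CT-BR-ER). IGF1R held 38.8% ± 1.56 of the sum in VCaP-T, 42.8% ± 2.19 with deprivation, 60.7% ± 0.307 for VCaP-CT-ER, 42.5% ± 0.687 under bicalutamide and 41.0% ± 1.47 when ENZ followed. The share of IGF1R was thus close to the same level in 4 sublines and higher in every library of VCaP-CT-ER. The next most abundant receptor per length was ERBB3 in 9 libraries and FGFR3 in 6. Shares and ratios on this scale are descriptions with no test.

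**Figure D4:**
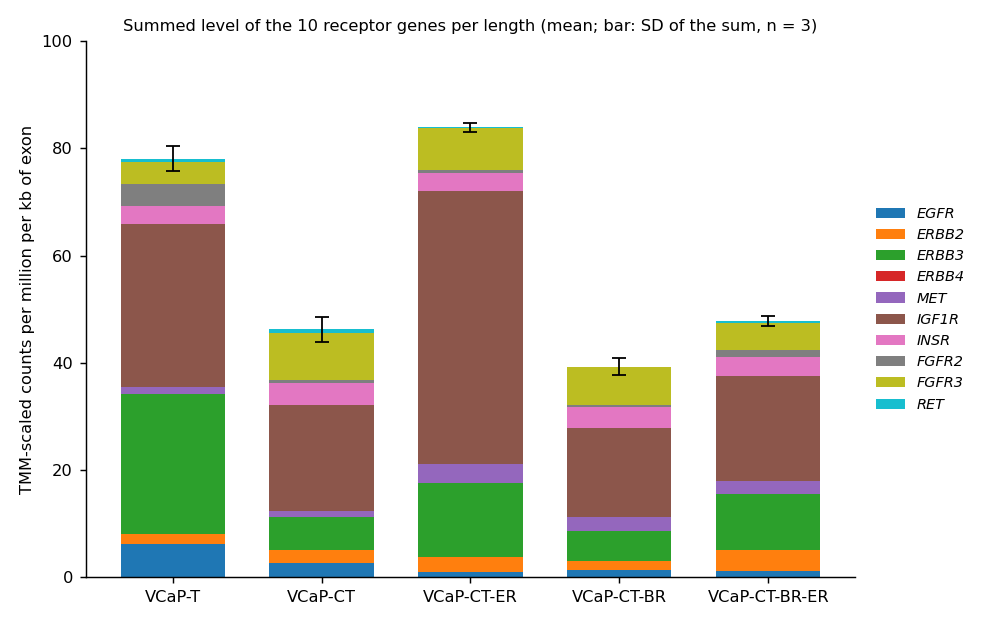
Summed level of the 10 receptor genes in TMM-scaled CPM per kilobase of exon (vertical axis), stacked by gene, as means of 3 libraries per subline; the bar is the SD of the sum. The sum is highest in VCaP-CT-ER, 83.9, where IGF1R holds 60.7% of it.

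Within families, the ratio between partners varied across the sublines. The ERBB3 to ERBB2 ratio per length was 14.7 ± 0.859 (SD, n = 3) in VCaP-T and 2.495 ± 0.0965 in VCaP-CT. It was 4.68 ± 0.193 for VCaP-CT-ER, 3.56 ± 0.341 for VCaP-CT-BR and 2.65 ± 0.173 for VCaP-CT-BR-ER, and ERBB3 was above ERBB2 and EGFR in all 15 libraries. EGFR made up 18.03% ± 0.640 of the ERBB family transcripts in VCaP-T and 23.4% ± 0.265 in VCaP-CT, 15.4% ± 0.433 under bicalutamide, 4.90% ± 0.388 for VCaP-CT-ER and 6.80% ± 0.220 for VCaP-CT-BR-ER. Its share was thus lowest in the ENZ-resistant sublines. ERBB2 made up 5.23% ± 0.271 of the family in VCaP-T, 21.9% ± 0.692 after deprivation, 16.8% ± 0.563 for VCaP-CT-ER, 18.6% ± 1.495 under bicalutamide and 25.6% ± 1.19 when ENZ followed, so its share was higher in every later subline. The IGF1R to INSR ratio was 8.80 ± 0.669 with testosterone and 4.94 ± 0.0895 after deprivation, stood at 15.01 ± 0.331 for VCaP-CT-ER, and was 4.37 ± 0.0427 under bicalutamide and 5.46 ± 0.273 when ENZ followed. The FGFR3 to FGFR2 ratio was 1.008 ± 0.114 in VCaP-T and 12.9 ± 1.16 after deprivation, and was 15.7 ± 1.77 for VCaP-CT-ER, 12.9 ± 2.19 under bicalutamide and 4.02 ± 0.495 when ENZ followed. FGFR2 and FGFR3 were thus level in VCaP-T, and FGFR3 exceeded FGFR2 in every later subline.

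The position of the receptors was compared with their changes through the tested genes centred within 2 Mb of each, the receptor itself left out. Around EGFR, 20 neighbours had median log2 fold changes of −0.11 with deprivation and 0.21 in VCaP-CT-ER against VCaP-CT, where EGFR fell by 1.25 and 1.59. With bicalutamide their median was 0.26, against −0.98 for EGFR. In VCaP-CT-BR-ER against VCaP-CT-BR it was −0.27, close to the −0.33 of EGFR, and 2 of these neighbours rose and 10 fell. Around FGFR2, the median of 26 neighbours was −0.33 with deprivation, against −2.62 for FGFR2, and around RET that of 25 neighbours was −0.24 in VCaP-CT-ER against VCaP-CT, against −4.00 for RET. For ERBB3, 121 neighbours had a median of −0.25 with deprivation, and 23 of them rose and 66 fell, where 65.3% of all genes were called. Around IGF1R, 11 of 19 neighbours rose and 2 fell in VCaP-CT-ER against VCaP-CT, with a median of 0.51 and 60.9% of all genes called, while within 5 Mb the median of 43 neighbours was −0.037. Around MET, 9 of 13 neighbours fell and 0 rose in VCaP-CT-BR-ER against VCaP-CT-BR, with a median of −0.71 and 42.9% of all genes called, while MET was at −0.076. ERBB2, which rose by 1.31 in that step, had 53 neighbours with a median of 0.22, of which 22 rose and 3 fell. No copy number data were analysed here.

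For the 8 receptors with at least a 2-fold change in a step, the genes with the nearest pattern were found as the smallest Euclidean distance between the 5 subline means of centred log2 CPM, a likeness over 5 points and not over single libraries. EGFR was followed most closely by MICAL2 (distance 0.143), with mean CPM of 151 in VCaP-T, 56.6 in VCaP-CT, and 19.9 to 32.5 after the antagonists, and next by HES2 (0.297). ERBB2 was nearest to RAB29 (0.198) and MAP3K14 (0.241), ERBB3 to WARS1 (0.307) and HOXB7 (0.359), and MET to ZNF136 (0.242) and CENPU (0.248). IGF1R was nearest to RNF26 (0.206) and ARHGAP24 (0.283), FGFR2 to CNN3 (0.278) and ANXA2 (0.391), and FGFR3 to ZNF34 (0.166) and CCDC28B (0.172). RET had the most distant neighbours of all, PAPSS2 (0.469) and KCND3 (0.593).

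The other genes of the pathway were taken from lists, each described by its counts and its median beside those of all genes. Of 38 ligands of the ERBB, MET, insulin-like, FGF and RET receptors, 15 were tested. With deprivation 4 rose and 7 fell, in VCaP-CT-ER against VCaP-CT 5 rose and 5 fell, in VCaP-CT-BR against VCaP-CT 1 rose and 6 fell, and in VCaP-CT-BR-ER against VCaP-CT-BR 3 rose and 5 fell. In these steps 73.3%, 66.7%, 46.7% and 53.3% of the tested ligands were called, against 65.3%, 60.9%, 53.2% and 42.9% of all genes. The list medians were −0.41, −0.19, −0.21 and −0.0080, beside 0.026, −0.019, −0.017 and 0.0030 over all genes. The lists that follow are read against these same values, in the same order of steps. The largest change was that of GDF15, which signals through GFRAL and RET and fell from 1226 ± 101 CPM (SD, n = 3) in VCaP-T to 24.95 ± 5.39 in VCaP-CT (log2 fold change −5.62, adjusted p = 3.22e-18). Among EGFR ligands, TGFA fell with deprivation from 36.7 ± 2.39 to 9.53 ± 0.271 CPM (−1.94 on the log2 scale, adjusted p = 3.99e-15), while HBEGF rose from 19.4 ± 0.512 to 31.3 ± 1.35 (0.70, 5.5e-09). HBEGF then fell in every later step, to 10.1 ± 0.698 CPM in VCaP-CT-ER (−1.63, adjusted p = 1.17e-14) and to 10.9 ± 0.257 in VCaP-CT-BR-ER (−0.87, 1.5e-09). EGF fell in VCaP-CT-ER from 3.04 ± 0.529 to 0.626 ± 0.257 CPM (−2.29, 6.2e-09).

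Of 22 co-receptors and binding proteins, 15 were tested. In the 4 steps in the same order 6, 6, 5 and 4 rose and 6, 6, 4 and 5 fell, 80%, 80%, 60% and 60% of those tested, with medians of 0.32, −0.015, 0.054 and −0.32. IGFBP2, a secreted binding protein of insulin-like growth factors, rose with deprivation from 49.0 ± 2.67 to 421 ± 35.0 CPM (log2 fold change 3.10, adjusted p = 2.12e-17). IGFBP3, the main carrier of these factors in serum, fell with deprivation from 23.3 ± 2.48 to 10.0 ± 0.968 CPM and then rose to 253 ± 17.7 in VCaP-CT-ER (4.66, adjusted p = 1.65e-16) and to 118 ± 2.40 in VCaP-CT-BR (3.55, 6.45e-14). CD44, a surface glycoprotein that presents growth factors to MET, fell in VCaP-CT-ER from 31.0 ± 0.768 to 6.75 ± 0.306 CPM (−2.20, adjusted p = 3.57e-17).

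Of 48 other receptor tyrosine kinases, 34 were tested. Here 13, 10, 6 and 10 rose and 14, 17, 19 and 15 fell, 79.4%, 79.4%, 73.5% and 73.5% of those tested, with medians of −0.076, −0.22, −0.33 and −0.10. EPHA5, an ephrin receptor, fell with deprivation from 4.54 ± 0.7003 to 0.724 ± 0.107 CPM and rose to 22.5 ± 1.28 in VCaP-CT-ER (log2 fold change 4.96, adjusted p = 1.21e-17). It fell with bicalutamide to 0.299 ± 0.0117 CPM (−1.26, adjusted p = 0.000494) and rose in VCaP-CT-BR-ER to 0.736 ± 0.143 (1.28, 0.000447). EPHA4 rose in VCaP-CT-BR from 7.69 ± 0.577 to 22.3 ± 1.82 CPM (1.53, adjusted p = 1.86e-11). PTK7, a receptor-like kinase without catalytic activity, rose with deprivation to 132 ± 12.3 CPM (1.009, adjusted p = 1.17e-11) and fell to 57.7 ± 2.64 in VCaP-CT-ER (−1.198, 8.61e-13).

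Adaptors link the receptors to the cascades, and 21 of 23 were tested. Of these 5, 10, 6 and 9 rose and 7, 7, 9 and 4 fell, 57.1%, 80.95%, 71.4% and 61.9% of those tested, with medians of −0.043, 0.13, −0.27 and 0.14. With deprivation the share called was thus below that of all genes. IRS1 and IRS2, the main substrates of IGF1R and INSR, rose in both ENZ steps. IRS1 went from 7.72 ± 0.699 to 29.9 ± 2.25 CPM in VCaP-CT-ER (log2 fold change 1.956, adjusted p = 1.52e-12) and from 3.37 ± 0.453 to 9.19 ± 1.11 in VCaP-CT-BR-ER (1.45, 8.56e-09), and IRS2 from 87.1 ± 6.46 to 195.3 ± 3.54 CPM (1.17, 3.81e-13) and from 62.1 ± 4.69 to 147 ± 6.90 (1.25, 5.72e-13). SHC2 fell in VCaP-CT-ER (−2.10, adjusted p = 3.35e-11) and in VCaP-CT-BR (−3.01, 1.74e-12) from 29.9 ± 6.65 CPM in VCaP-CT.

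Of 17 genes of the RAS-MAPK cascade, 16 were tested, and 4, 7, 8 and 8 rose while 7, 6, 3 and 2 fell, 68.8%, 81.3%, 68.8% and 62.5% of those tested, with medians of −0.031, 0.19, 0.10 and 0.13. ARAF, a RAF kinase, rose to 198 ± 17.3 CPM in VCaP-CT-ER (log2 fold change 0.78, adjusted p = 8.37e-09). Of 21 genes of the PI3K-AKT branch, 20 were tested, and 6, 7, 8 and 7 rose while 9, 6, 3 and 8 fell, 75%, 65%, 55% and 75% of those tested, with medians of −0.13, −0.011, 0.073 and 0.047. PIK3IP1, an inhibitor of PI3K, rose with deprivation from 5.38 ± 0.247 to 25.3 ± 0.661 CPM (2.23, adjusted p = 1.15e-16) and fell to 1.86 ± 0.174 in VCaP-CT-ER (−3.77, 2.34e-19). PIK3CA, the catalytic subunit p110 alpha, rose in VCaP-CT-BR to 28.02 ± 1.27 CPM (0.67, 9.58e-08) and fell to 18.2 ± 1.66 in VCaP-CT-BR-ER (−0.62, 3.12e-07).

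Negative regulators of receptor signalling were tested for 28 of 30 genes, and 5, 9, 7 and 11 rose while 16, 10, 14 and 4 fell, 75%, 67.9%, 75% and 53.6% of those tested, with medians of −0.23, 0.065, −0.12 and 0.12. SPRED1 and SPRY4, inhibitors of the RAS-MAPK cascade, fell with deprivation, from 14.1 ± 1.04 to 1.87 ± 0.313 CPM (log2 fold change −2.92, adjusted p = 1.5e-13) and from 7.13 ± 0.420 to 1.03 ± 0.237 (−2.78, 4.42e-12). ERRFI1, an inhibitor of EGFR and ERBB2 kinases, rose in VCaP-CT-ER from 25.1 ± 1.53 to 63.3 ± 2.14 CPM (1.33, adjusted p = 4.1e-14). SOCS2, a suppressor of cytokine signalling, fell in VCaP-CT-ER from 67.8 ± 3.16 to 22.9 ± 0.438 CPM (−1.57, adjusted p = 1.05e-15) and rose in VCaP-CT-BR-ER from 48.1 ± 1.46 to 110.0 ± 4.01 (1.19, 1.76e-13).

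Genes known as outputs of the MAPK cascade were tested for 14 of 16, some of which, such as SPRED1, SPRY4 and DUSP5, are also in the list of negative regulators. Of these 4, 4, 2 and 5 rose and 5, 6, 8 and 2 fell, 64.3%, 71.4%, 71.4% and 50% of those tested, with medians of −0.22, 0.25, −0.66 and 0.0027. EGR1, an immediate early transcription factor, rose in VCaP-CT-ER from 31.0 ± 4.05 to 232 ± 63.4 CPM (log2 fold change 2.90, adjusted p = 9.24e-14), fell in VCaP-CT-BR to 5.53 ± 0.192 (−2.49, 6.9e-11) and rose in VCaP-CT-BR-ER to 49.2 ± 3.31 (3.15, 1.14e-12). DUSP5, a phosphatase of ERK, fell in VCaP-CT-ER from 7.86 ± 1.05 to 1.07 ± 0.418 CPM (−2.86, adjusted p = 8.24e-11), so the members moved in both directions. CCND1, cyclin D1, rose in VCaP-CT-ER from 555 ± 17.6 to 1167 ± 24.5 CPM (1.07, adjusted p = 2.51e-15). Of 9 genes induced by FOXO factors, which AKT holds out of the nucleus, all 9 were tested, and 4, 5, 3 and 4 rose while 5, 3, 5 and 5 fell, 100%, 88.9%, 88.9% and 100% of those tested, with medians of −0.32, 0.38, −0.20 and −0.23. TRIB2 (2.71, adjusted p = 2.48e-18) and BCL6 (1.94, 1.53e-14) rose in VCaP-CT-ER, while PIK3IP1 (−3.77, 2.34e-19) and CCNG2 (−0.98, 2.95e-12) fell there. PIK3IP1 is also in the list of the PI3K-AKT branch, and IRS2, another gene of this list, is also among the adaptors.

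**Figure D5:**
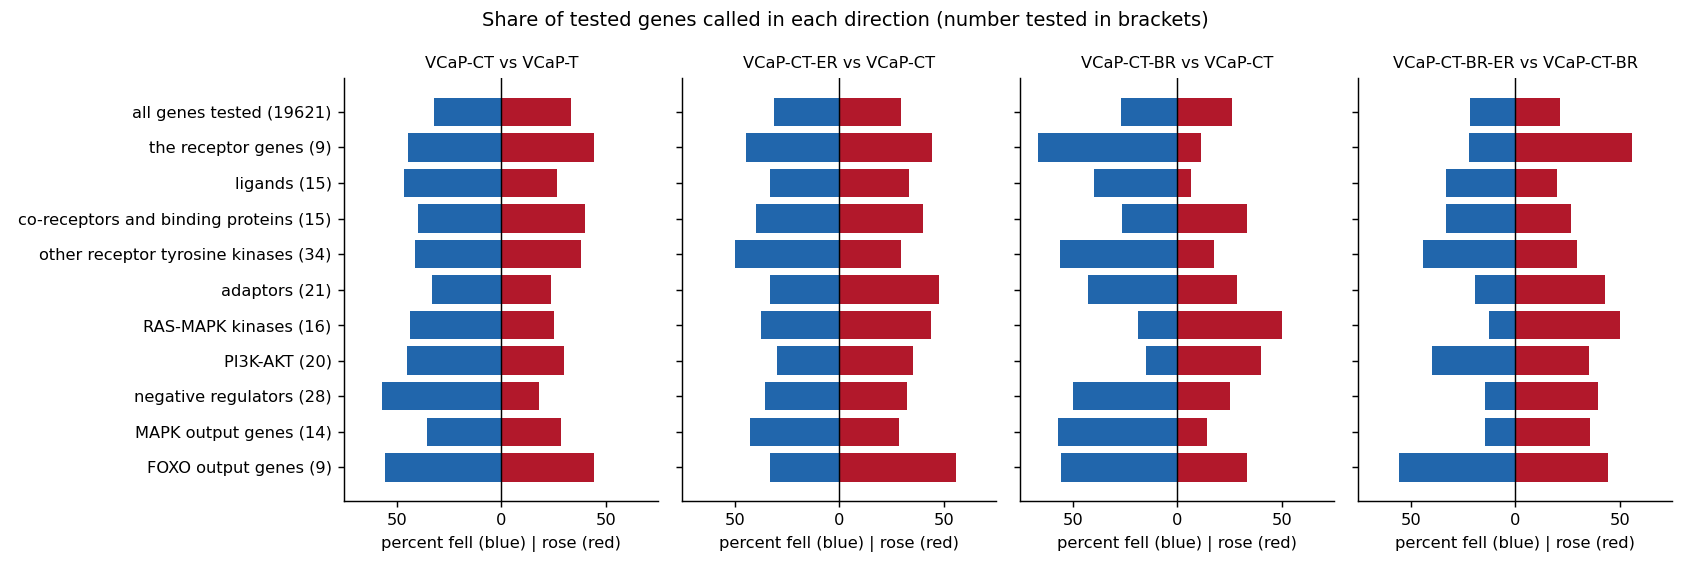
Share of tested genes that fell (blue, left) or rose (red, right) at an adjusted p of 0.05 in the 4 steps, in percent, for all genes, the receptor genes and the 9 lists, with the number tested in brackets. The longest bar to the left is that of the receptors in VCaP-CT-BR against VCaP-CT, where 6 of 9 fell and 1 rose.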

How the data were processed

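Bulk RNA-seq of 15 libraries, 3 for each of 5 VCaP sublines, was sequenced on an Illumina HiSeq instrument. STAR 2.5.4b was used by the authors for alignment to GRCh38. They deposited raw fragment counts per gene, made by featureCounts 1.6.2 from read pairs on GENCODE release 28 exons, with no strand, multi-mapping or multi-overlap option set per the file headers. Fragments that overlap several genes were therefore left out of the counts. Library totals were 33665716 to 46935279 counts. A floor of 3 counts was used for ERBB4 and allows for counting error alone, as reads carried no described molecular identifiers.

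The samples were grouped by the titles of the labels. Symbols came from GENCODE release 44 by identifier and matched 98.9% of 58381 genes. The test was edgeR's quasi-likelihood test (edgeR 4.0.16, R 4.3.3) after filterByExpr (minimum count 10, leaving 19621 genes) and TMM scaling. All 15 libraries entered with 1 coefficient for each subline, and p-values were adjusted by Benjamini-Hochberg over all tested genes (threshold 0.05). The common dispersion gave a biological coefficient of variation of 0.0609. Contrasts were the 4 steps, 3 comparisons with VCaP-T, the difference of the ENZ steps, and all pairs of sublines for the order of levels. The fit was tested on simulated counts in which few genes changed, and only in VCaP-CT, a setting unlike the large shares called here. Promoters came from RefSeq on GRCh38.p14, and their words were counted in Python.

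The alternatives were DESeq2 1.42.0, upper quartile factors, no filter, at least 10 counts in every library, a replicate block, only the sublines compared, a change of at least 2-fold, and leaving out each library. Named genes were all 10 receptors; from each pathway list and step, up to 2 genes that rose and 2 that fell most among those past the threshold with a mean log2 CPM of at least 1; and the 2 genes nearest to each receptor with at least a 2-fold change in a step. The text names fewer, from the top, and some genes that the lists or rules hold are not reported here. The receptors and lists were chosen with earlier results of these data known. Standard errors were calculated back from the log2 fold change and the F statistic of the test. Intervals of 95% are approximate, come from this standard error and the normal distribution, and are not adjusted for the number of genes. Figures were drawn with matplotlib.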

Additional observations from a re-analysis of the deposited data

Results flagged for a closer look

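The change in the ENZ step differed between the starting sublines, by a test of the difference itself (edgeR's quasi-likelihood test with Benjamini-Hochberg adjustment), for 7 receptors. As the log2 fold change from VCaP-CT minus that from VCaP-CT-BR, the differences were −1.26 for EGFR (−1.59 against −0.33), −1.04 for ERBB2 (0.27 against 1.31), 0.29 for ERBB3 (1.18 against 0.88), 1.51 for MET (1.43 against −0.076), 1.13 for IGF1R (1.37 against 0.23), −1.63 for FGFR2 (−0.39 against 1.24) and −5.28 for RET (−4.00 against 1.29). For FGFR2 and RET every library of the resistant subline lay below its start in one route and above it in the other. The background was 49.7% of all genes, and the steps differ in the derivation of each subline as well as in their starting point.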

How the results depend on the processing

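The replicate numbers were not taken as pairs. Over 13052 genes, deviations from the subline means correlated between libraries of the same number at a mean of −0.009 (0.004 for the rest), but the values per pair of sublines ran from −0.292 to 0.291. All 4 pairs with VCaP-T were negative, and 5 of the 6 others were above 0.1, among them 0.291 for VCaP-CT-ER with VCaP-CT, while VCaP-CT-BR with VCaP-CT-ER was at −0.151. With the replicate block, 8, 8, 7, 7, 8, 9, 8 and 7 receptors were called, in the order of the 4 steps, the 3 comparisons with VCaP-T (VCaP-CT-ER, VCaP-CT-BR, VCaP-CT-BR-ER) and the difference of the ENZ steps, and it changed no call of a receptor. Requiring at least a 2-fold change gave 4, 5, 2, 3, 4, 5 and 4 receptors in the first 7 of these, and 6 of 7 in the last; fewer calls follow from the stricter rule. The 2-fold rule with 1 library left out, chosen after seeing the data, gave 1 to 3 receptors with bicalutamide and moved the other counts by at most 1. Leaving out 1 library gave 7 to 8, 8 to 8, 5 to 8, 7 to 7, 8 to 8, 7 to 9, 7 to 8 and 7 to 8 receptors. In 24 of the 1080 receptor values with a library left out a call was lost, and in 5 a call was gained; those are the ERBB2, ERBB3, INSR, FGFR2, FGFR3 and RET values named above. No receptor changed direction past the test under any alternative run. DESeq2 lost the calls of RET with deprivation (adjusted p = 0.131) and INSR in VCaP-CT-BR against VCaP-T (0.118), and the fit without a filter lost these and that of ERBB2 in VCaP-CT-BR against VCaP-T (0.0698), while it gained FGFR3 in the difference (0.00368). ERBB3 with bicalutamide was called with upper quartile factors (0.0166) and under the filter of at least 10 counts in every library (0.0393). FGFR3 with bicalutamide was not called when only the sublines compared were fitted (0.0589), and INSR in VCaP-CT-BR against VCaP-T was not called in that fit (0.0753) or under the stricter filter (0.103). Of the counts for the lists, 97 moved by over 1.5 times and 533 did not; 76 of the 97 came with the 2-fold rule and 16 from the filter of at least 10 counts in every library. Without division by length, all 15 family ratios moved. With the window of 5 Mb, 21 of the neighbour medians moved by at least the SD between libraries and 19 did not. Depth limits ERBB4, at most 10 counts in a library, and RET in VCaP-CT-ER, at most 14.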
